A study of Mus musculus with 12 samples.

Results

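The nuclear-encoded subunits of the mitochondrial respiratory chain were described in mouse liver that was growing back after surgery. They were chosen by symbol alone, as the genes whose names start with Nduf followed by a, b, c, s or v and a digit (complex I), the genes Sdha to Sdhd (complex II), and the genes that start with Uqcr (complex III), Cox4 to Cox8 (complex IV) or Atp5 (complex V). This rule found 79 of the 13554 genes in the table, with 37 in complex I, 4 in complex II, 8 in complex III, 15 in complex IV and 15 in complex V. Tests were run on genes that reached 10 normalised reads in 3 or more libraries, as 76 of the 79 did. Ndufb4c, Cox4i2 and Cox6a2 were too low. The rule leaves out Ndufab1, Cyc1 and Cycs, and Atp5f1, Atp5s, Cox7b2, Cox8b, Cox8c and Ndufs5 are not analysed here. The subunits encoded by the mitochondrial genome are not analysed here either, since the table held 0 symbols of mitochondrially encoded genes. Ndufa4 counts under complex I by its symbol, although its protein is known as a subunit of complex IV.

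RNA was measured on postoperative day 3 in liver of wild-type C57Bl/6J males after partial hepatectomy, the removal of part of the liver. The 4 groups were resection of 80% in an arm named HC (PH80_HC), resection of 80% with G-CSF (granulocyte colony-stimulating factor) plus HNF4a, a transcription factor of hepatocytes (PH80_G+H), resection of 80% (PH80) and resection of 70% (PH70). Each had 3 libraries. The sources used here do not give what HC stands for, the dose and timing of G-CSF and HNF4a, or the age of the mice. Since no label ties each library to its own animal, the p-values describe only how far these libraries spread, and that spread may be technical.

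The respiratory chain sits in the inner membrane of the mitochondrion. Complex I (NADH dehydrogenase) and complex II (succinate dehydrogenase, also an enzyme of the TCA cycle) pass electrons to coenzyme Q, complex III passes them on to cytochrome c, and complex IV (cytochrome c oxidase) passes them to oxygen. Complexes I, III and IV pump protons across the membrane, and complex V (ATP synthase) uses the gradient to make ATP. Cytochrome b of complex III and the catalytic subunits of complex IV are made inside the mitochondrion, while all of complex II and most subunits of the other complexes are encoded in the nucleus. Hepatocytes are rich in mitochondria, and the synthesis of urea, glucose and DNA in a growing liver draws on their ATP.

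Recovered depth ranged from 9.72 M reads (PH70 replicate 3) to 44.5 M reads (PH80_G+H replicate 2) per library, and values are normalised reads, which are reads divided by 1 size factor per library. The subunits took between 1.23% and 2.54% of all normalised reads in a library. Hepatocyte markers (Alb, Apoa1, Ttr, Serpina1c and Hnf4a) were present throughout. A sum follows its most abundant genes, and Alb alone took 6.74% to 11.74% of all normalised reads in a library. Such a sum does not show whether the 5 markers agree. Their summed level was 2646000 to 3885000 in PH80_HC, 2438000 to 3005000 in PH80_G+H, 1877000 to 2327000 in PH80 and 2917000 to 3143000 in PH70, so that PH80 lay below each of the other groups without overlap. The 5 neutrophil markers, of which at least 1 was at 0 in 5 libraries, summed to 475 to 2017 in PH80_HC, 300 to 2194 in PH80_G+H, 245 to 5610 in PH80 and 90.2 to 319 in PH70. Of the 5 heart and skeletal muscle markers, 1 was in the table, and its level was 11.96 at most. Macrophage markers (5 of 5 in the table) summed to 11760 to 17790 in PH80_HC, 6167 to 9371 in PH80_G+H, 6030 to 16190 in PH80 and 5231 to 6579 in PH70, so that PH80_HC lay above PH80_G+H and PH70 without overlap. Stellate cell markers (5 of 5) summed to 3496 to 5164 in PH80_HC, 5147 to 8613 in PH80_G+H, 5991 to 17980 in PH80 and 4328 to 11440 in PH70, so that PH80_HC lay below PH80 without overlap. Neutrophil and lymphocyte markers were also higher in PH80_HC than in PH70 without overlap, and erythroid markers (3 of 5 in the table) were lower in PH80, at 946.5 to 1269, than in PH70, at 1454 to 3089. The single brown fat marker in the table reached 13.46 at most, and the sums of the endothelial and cholangiocyte markers overlapped between the groups of every comparison. The part of cell makeup in the results was not tested, and in whole liver fewer cells of a type and less RNA per cell cannot be told apart.

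Per kilobase of transcript, which allows levels of different genes to be set side by side, the most abundant subunit transcript was Ndufa4, with a mean of 35130 normalised reads per kilobase over the 12 libraries. Atp5e, the epsilon subunit of ATP synthase, had 24370, and Cox4i1, a nuclear-encoded regulatory subunit of complex IV, had 23220. The order of these 2 differed between groups. Atp5e had group means per kilobase of 38470 in PH80_HC, 19150 in PH80_G+H, 27470 in PH80 and 12380 in PH70. Cox4i1 had 31290, 19600, 24990 and 17010 in the same order. The Atp5e mean in PH80_HC was raised by replicate 3, with 33600 normalised reads against 7410 and 7574. The median level was 10510 in complex III (8 genes), 9899 in complex IV (13 genes), 8695 in complex V (14 genes), 3532 in complex I (36 genes) and 3478 in complex II (4 genes). The levels within a complex spread widely. Among the tested genes counted under complex I by symbol they ran from 89.9 (Ndufa4l2) to 35130 (Ndufa4). The Ndufa4 protein is known as a subunit of complex IV, as given above. Without Ndufa4 and its relative Ndufa4l2 the range was 466.5 (Ndufb4) to 11780 (Ndufb9). In complex III the levels ran from 2758 (Uqcrc2) to 16990 (Uqcrh).

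Where a subunit has isoforms, the liver form dominated. Cox4i1 stood 2070-fold above Cox4i2, its oxygen-regulated isoform, per kilobase, and Cox4i2 had only 3 to 15 reads in a library. Cox7a2 stood 96.7-fold above Cox7a1, the heart and skeletal muscle form, with 42.7-fold to 143-fold in single libraries. Cox6b1 stood 46.4-fold above Cox6b2, which is best known from testis. Cox6a2, the muscle partner of Cox6a1, had 0 to 6 reads in a library. Ndufa4l2, a hypoxia-inducible relative of Ndufa4, had 99.6, 59.0 and 126 normalised reads in PH80_HC, 77.3, 74.7 and 81.6 in PH80_G+H, 115, 92.0 and 54.2 in PH80 and 75.1, 84.1 and 69.1 in PH70. The groups overlapped for Ndufa4l2, and PH80_HC differed from PH80 by 0.12 on the log2 scale (adjusted p = 0.92, limma with Benjamini-Hochberg adjustment). Cox8a had a mean of 11120 normalised reads per kilobase, Cox7b 9899 and Cox7a2l, known for its part in joining complexes III and IV, 1907. Among the genes for the c ring of ATP synthase, Atp5g3 had 19050 and Atp5g2 had 1173, and Atp5g1 had 1663. The level of Atp5g1 is uncertain, because its principal transcripts run from 596 to 4715 bases and their median was used. The levels of Atp5g1 and Atp5g2 are also uncertain because of near-identical copies. Of the 50-base windows of their transcripts, 56.23% and 100% are also found in transcripts of other genes, against 0% for Atp5g3.

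Nuclear respiratory chain genes are known targets of NRF1, a transcription factor that binds a GC-rich palindrome, and the promoters of the subunits were searched for it. RefSeq promoters (GRCm38.p6, 250 bases before to 50 after a listed start) were found for 63 of the 79 genes. The NRF1 motif, GCGCA and GCGC with any base N between them, on either strand, was present in 16 of the 63 (25.4%), against 11.01% of the 10099 tested genes with a promoter and 5.19% of all 27025 genes. The YY1 motif, AAGATGG followed directly by CGG, was present in 5 (7.94%), against 2.28% of tested genes, the ERR alpha motif TCAAGGTCA in 2 (3.17%), against 0.327%, and the ETS motif CCGGAAGT of GABPA in 5 (7.94%), against 8.81%. A palindromic match on both strands counted as 1 position. A match describes letters in a window and is not a measured site.

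The 4 promoters with 2 or more NRF1 positions are shown. Across the libraries, Ndufb4 and Cox6a1 moved with most other subunits, Uqcrc1 followed them weakly and Sdha moved against them. Capitals mark the NRF1 motif on either strand, 5′ to 3′ along the gene, at 3 positions in Sdha and Ndufb4 and at 2 in Cox6a1 and Uqcrc1.
Sdha (chr13:74350191-74350490, minus strand): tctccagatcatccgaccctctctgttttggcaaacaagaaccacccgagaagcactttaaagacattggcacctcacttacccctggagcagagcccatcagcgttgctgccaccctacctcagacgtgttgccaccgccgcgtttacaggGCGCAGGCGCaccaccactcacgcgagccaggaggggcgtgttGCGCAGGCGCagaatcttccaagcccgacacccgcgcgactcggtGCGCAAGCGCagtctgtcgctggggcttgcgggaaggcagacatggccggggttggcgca
Uqcrc1 (chr9:108936398-108936697, plus strand): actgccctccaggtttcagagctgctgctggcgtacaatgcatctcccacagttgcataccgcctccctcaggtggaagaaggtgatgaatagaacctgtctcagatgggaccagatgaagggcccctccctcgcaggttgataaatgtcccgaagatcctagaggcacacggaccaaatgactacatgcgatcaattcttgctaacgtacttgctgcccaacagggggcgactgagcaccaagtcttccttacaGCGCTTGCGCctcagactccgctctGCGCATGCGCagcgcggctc
Ndufb4 (chr16:37654319-37654618, minus strand): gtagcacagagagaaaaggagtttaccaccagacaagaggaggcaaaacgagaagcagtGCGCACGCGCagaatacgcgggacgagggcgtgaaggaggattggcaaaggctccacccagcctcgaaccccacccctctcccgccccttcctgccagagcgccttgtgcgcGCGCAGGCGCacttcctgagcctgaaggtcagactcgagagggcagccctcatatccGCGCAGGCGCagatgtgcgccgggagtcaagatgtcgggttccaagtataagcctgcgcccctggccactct
Cox6a1 (chr5:115348909-115349208, minus strand): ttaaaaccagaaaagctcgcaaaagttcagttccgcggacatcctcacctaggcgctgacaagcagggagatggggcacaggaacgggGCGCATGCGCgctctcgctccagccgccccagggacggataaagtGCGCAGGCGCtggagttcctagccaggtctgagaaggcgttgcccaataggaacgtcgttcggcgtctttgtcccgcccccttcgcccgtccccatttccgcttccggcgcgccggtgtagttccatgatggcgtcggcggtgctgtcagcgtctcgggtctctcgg
Over the 12 libraries, the correlation of each gene with the mean of the other subunits was -0.65 for Sdha and 0.24 for Uqcrc1. It was 0.97 for Ndufb4 and 0.95 for Cox6a1. This correlation is a description, because the genes share library, depth and transcript length. The part of the motif in how these genes moved was not tested.

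Most subunits moved together from library to library. Across the 12 libraries, the median correlation of a subunit with the mean of the others was 0.951, and 61 of the 76 had a value over 0.8. The median was 0.961 for deviations from the group means, so that the shared movement was also present within groups. The mean of the 76 subunits, as a log2 deviation from each gene's mean, was 0.02, -0.06 and 0.81 in PH80_HC, 0.20, -0.68 and 0.07 in PH80_G+H, 0.41, 0.05 and -0.02 in PH80 and 0.18, -0.25 and -0.74 in PH70. PH80_HC replicate 3 was the highest library and PH80 replicate 1 the next, PH70 replicate 3 and PH80_G+H replicate 2 were the lowest, and the groups overlapped.

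**Figure D1:**
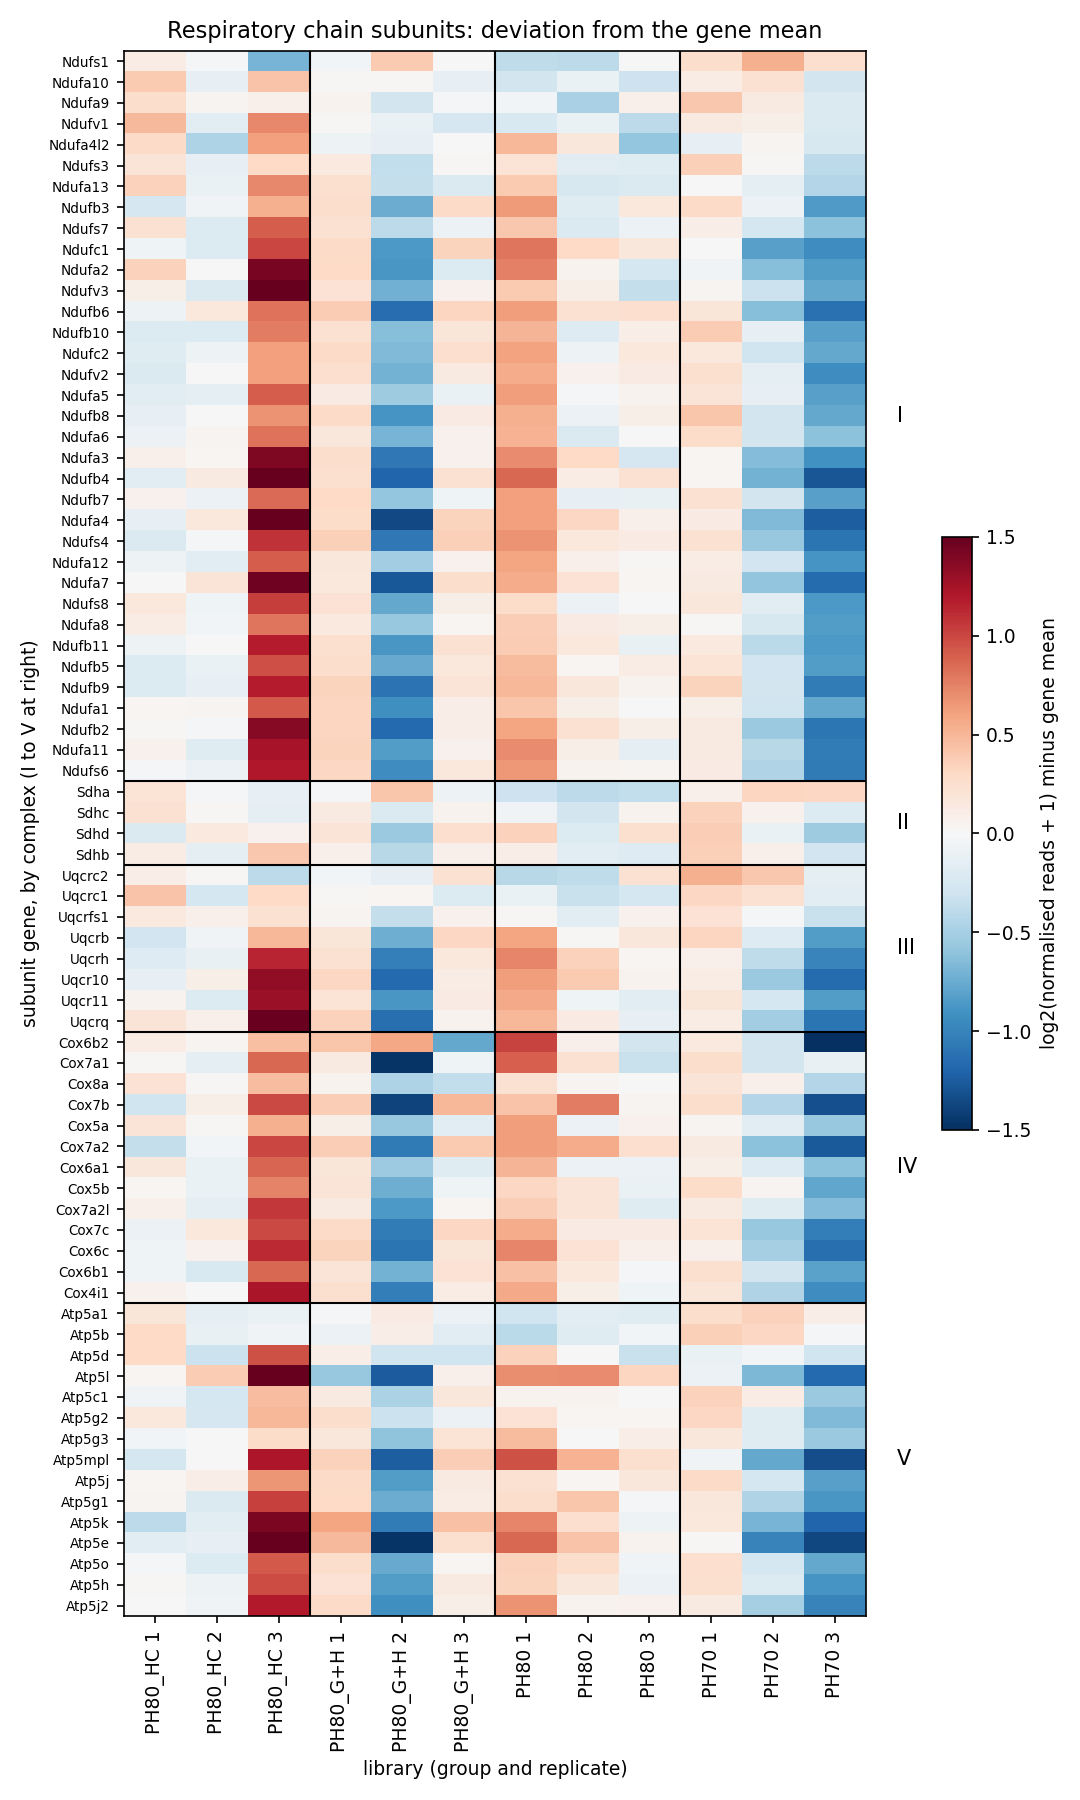
Each row is a tested subunit gene (75 of the 76, by complex I to V and, within a complex, from the lowest to the highest correlation with the other subunits) and each column a library. Colour is log2(normalised reads + 1) minus the gene's mean over the 12 libraries, cut at 1.5. PH80_HC 3 is red and PH80_G+H 2 and PH70 3 are blue in most rows, while a few rows at the top of complexes I, II, III and V run the other way.

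These 4 libraries also had the steepest trend of expression on transcript length in their group. The slope over all other genes, in log2 deviation per doubling of length, was -0.068, 0.038 and -0.283 in PH80_HC, -0.066, 0.240 and 0.009 in PH80_G+H, -0.192, -0.007 and -0.005 in PH80 and -0.004, 0.110 and 0.228 in PH70. Short transcripts were thus relatively high in PH80_HC replicate 3 and PH80 replicate 1 and relatively low in PH80_G+H replicate 2 and PH70 replicate 3. Subunit transcripts were short, with a median of 782 bases against 2880 bases for all tested genes. The 77 tested ribosomal protein genes of the cytosol, whose transcripts are also short, had mean deviations of 0.07, 0.01 and 1.16 in PH80_HC, 0.20, -0.88 and 0.12 in PH80_G+H, 0.52, 0.43 and 0.10 in PH80 and 0.03, -0.63 and -1.12 in PH70.

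**Figure D2:**
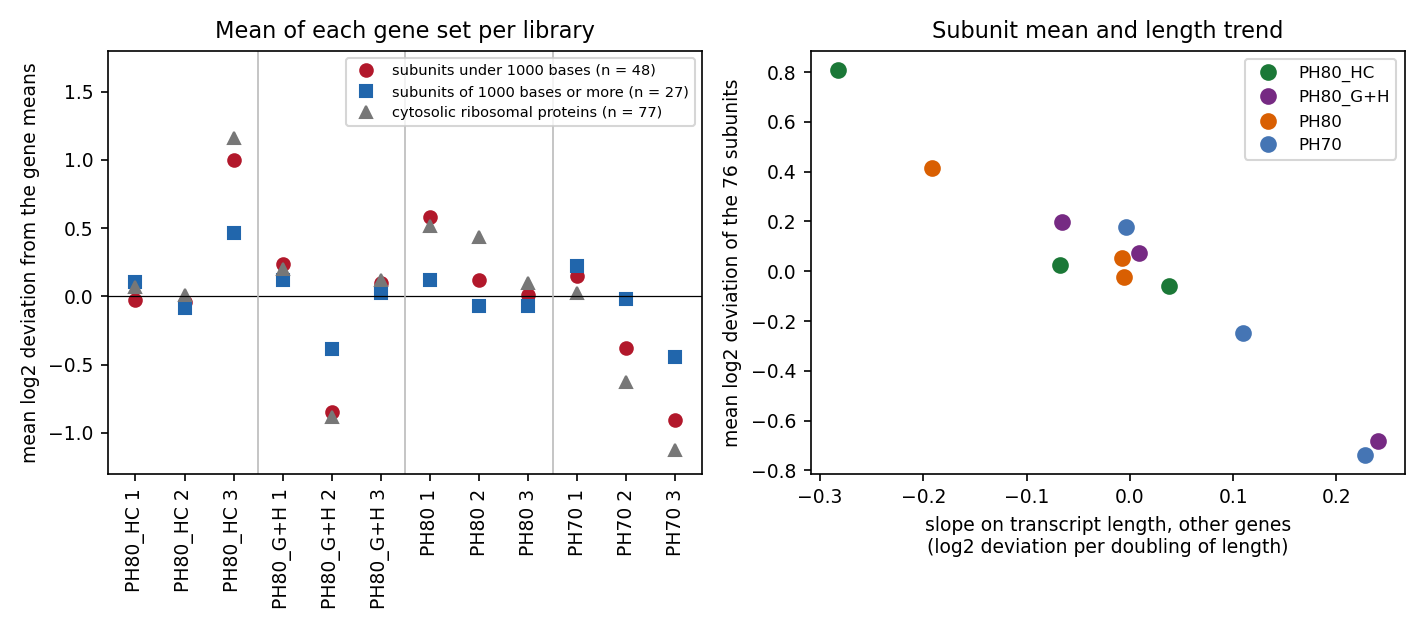
Left: mean log2 deviation of the subunits under 1000 bases (48 genes), the subunits of 1000 bases or more (27 genes) and the 77 cytosolic ribosomal protein genes in each library. Right: mean deviation of the 76 subunits against the library's slope on transcript length over the other genes, 1 point per library. The subunit mean runs from 0.81 in the library with a slope of -0.283 to -0.74 and -0.68 in the libraries with slopes of 0.228 and 0.240.

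The subunits with a negative correlation with the rest included Ndufs1 (-0.79), Sdha (-0.65), Atp5a1 (-0.44), Atp5b (-0.29) and Uqcrc2 (-0.23). They are the large iron-sulfur subunit of complex I, the FAD-carrying subunit of complex II, the alpha and catalytic beta subunits of the ATP synthase head and a core protein of complex III. These 5 had transcripts of 1000 bases or more. That length, chosen after the values were seen, separated 48 subunits under it and 27 at or above it among the 75 with an annotated length. In 6 subunits, Atp5d, Atp5g1, Ndufb2, Ndufc1, Ndufs8 and Uqcrq, principal transcripts lie on both sides of it.

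The comparison of PH80 with PH70 asks what the larger resection did. No subunit passed the test: 0 of 76 had an adjusted p under 0.05 by limma with Benjamini-Hochberg adjustment over all genes, against 3.82% of the 12570 genes tested. At an unadjusted p under 0.05 there were 9 subunits, 6 higher and 3 lower in PH80, which is below the 21.4% of all genes at that level. edgeR on recovered reads also called 0 subunits, against 2.93% of all genes. DESeq2 called 2, Sdha and Atp5a1, both lower in PH80, against 7.56% of all genes. The median log2 difference was 0.44 with 63 of 76 above zero, against 0.01 with 6457 of 12570 above zero for all genes. The median was 0.50 in complex I (30 of 36 above zero), -0.15 in complex II (1 of 4), 0.46 in complex III (6 of 8), 0.47 in complex IV (13 of 13) and 0.42 in complex V (13 of 15). The summed hepatocyte markers were also lower in PH80 than in PH70, as given above, and their part in these values was not tested.

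The libraries of the compared groups did not overlap for 14 subunits. The 9 that were higher in PH80 (12.8% of all genes tested were higher in this way) were Atp5mpl, Atp5e, Atp5l, Cox7a2, Ndufb4, Ndufc1, Ndufb6, Cox6c and Ndufa8. The 5 that were lower (14.2% of all genes) included Ndufs1, Sdha, Atp5a1 and Atp5b. The shares of the subunits were thus near or under the background in both directions. All 9 of the first list had transcripts under 1000 bases and the 4 named of the second had longer ones.

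Sdha, the subunit of succinate dehydrogenase that oxidises succinate (chromosome 13, 74322254 to 74350280, minus strand, GRCm38), had 5571, 5243 and 5365 normalised reads in PH80, against 7295, 8601 and 8532 in PH70. Every PH80 library lay below every PH70 library, and the spread within PH80 was narrow. The mean was 5393 ± 165 in PH80 and 8142 ± 734 in PH70 (SD, n = 3 each), a log2 difference of -0.59 (SE 0.19, limma adjusted p = 0.105). This was the smallest adjusted p of any subunit in any comparison. DESeq2 gave an adjusted p of 0.0214, and the range over the 25 alternatives was 0.0214 to 0.302.

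Ndufs1 (chromosome 1, 63143596 to 63176833, minus strand) had 1436, 1424 and 1852 normalised reads in PH80, against 2230, 2705 and 2223 in PH70. The groups did not overlap, and the log2 difference was -0.61 (SE 0.22, limma adjusted p = 0.144).

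The alpha and beta subunits form the head of ATP synthase. Atp5a1 had 14790, 16280 and 16100 normalised reads in PH80, against 21870, 23170 and 19590 in PH70 (log2 difference -0.45, SE 0.20, limma adjusted p = 0.217). Atp5b (chromosome 10, 128083273 to 128090391, plus strand) had 23070, 26920 and 29530 in PH80, against 39010, 37810 and 30100 in PH70 (log2 difference -0.43, SE 0.24, limma adjusted p = 0.321). Both were lower in each PH80 library than in each PH70 library, and for Atp5b the gap was small.

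The short subunits lay the other way. Atp5mpl, a small membrane subunit of ATP synthase (chromosome 12, 111961375 to 111966977, minus strand), had 9257, 6865 and 5620 normalised reads in PH80, against 4591, 2797 and 1891 in PH70. The log2 difference of 1.29 (SE 0.47, limma adjusted p = 0.139) was the largest of any subunit in this comparison, and the groups did not overlap. Atp5e had 15010, 11130 and 8557 in PH80, against 8311, 4131 and 3189 in PH70 (log2 difference 1.24, SE 0.60, limma adjusted p = 0.249). The highest PH70 library of Atp5e was just under the lowest PH80 library.

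Cox7a2 of complex IV had 13610, 12980 and 10460 normalised reads in PH80, against 9669, 5758 and 3670 in PH70 (log2 difference 1.06, SE 0.44, limma adjusted p = 0.19). Cox4i1 had 23930, 17190 and 15480 in PH80, against 18260, 11840 and 8436 in PH70 (log2 difference 0.60, SE 0.41, limma adjusted p = 0.412), and Ndufa4 had 25160, 20280 and 17300 in PH80, against 17790, 10360 and 6977 in PH70 (log2 difference 0.93, SE 0.50, limma adjusted p = 0.296). For Cox4i1 and Ndufa4 the highest PH70 library, replicate 1, overlapped with PH80. In these 5 short genes PH70 replicate 3 was the lowest library and PH80 replicate 1 the highest of the compared groups.

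**Figure D3:**
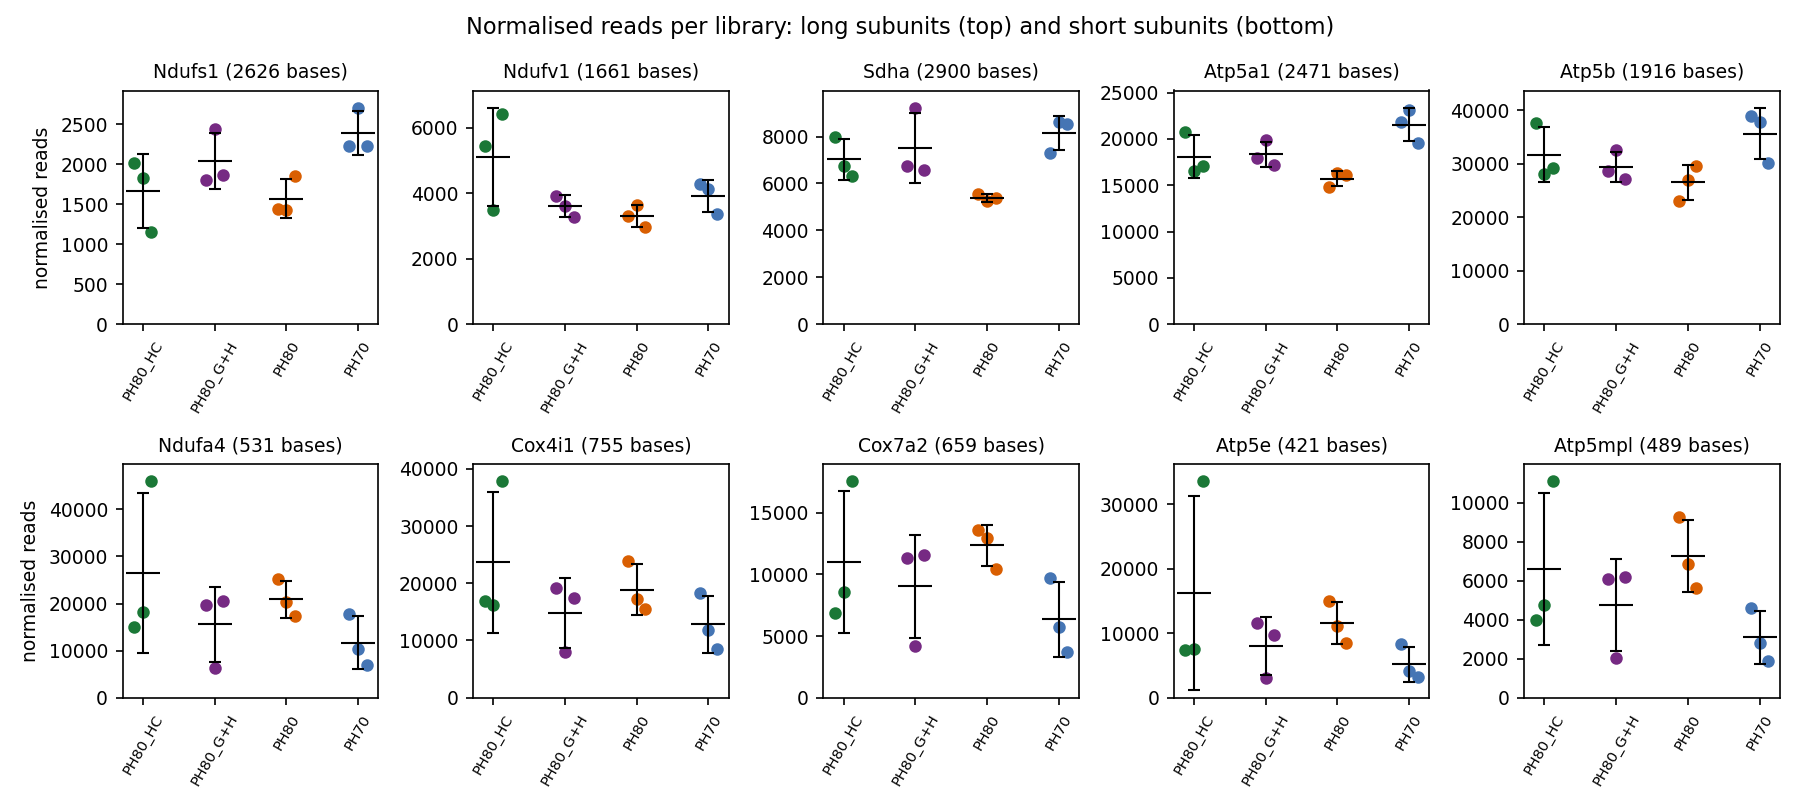
Normalised reads of 5 long subunits (top) and 5 short subunits (bottom) in each library. Points are libraries 1 to 3 from left to right in a group, and bars are the mean ± SD (n = 3 per group). In the top row the PH80 points lie below the PH70 points except in Ndufv1, where they overlap. In the bottom row PH80_HC 3 is the highest library and PH80_G+H 2 and PH70 3 lie low. PH80_HC 3 stands far above the other libraries in Ndufa4, Cox4i1 and Atp5e and less so in Cox7a2 and Atp5mpl.

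Other core subunits lay between these. Ndufv1, which binds NADH, was at a log2 difference of -0.24, and Uqcrc1 and Uqcrc2, the core proteins of complex III, were at -0.36 and -0.45. Uqcrfs1, the Rieske iron-sulfur protein of complex III, averaged 4681 ± 383 normalised reads in PH80 and 4678 ± 887 in PH70, a difference of 0.02. Cox5a of complex IV was at 0.43. Sdhb, the iron-sulfur subunit of complex II, averaged 4827 ± 552 in PH80 and 5371 ± 1164 in PH70 (SD, n = 3 each). The adjusted p values of these genes lay above those of Sdha and Ndufs1, and their groups overlapped.

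The sign of the difference went with transcript length. All 48 subunits under 1000 bases were above zero in PH80 against PH70, with a median log2 difference of 0.54, whereas 14 of the 27 longer ones were, with a median of 0.02. Without the 6 subunits whose transcripts lie on both sides of 1000 bases these values were 45 of 45 (median 0.53) and 11 of 24 (median -0.09). Other short genes had a similar median: of 717 tested genes under 1000 bases that are no subunits, 629 were above zero with a median of 0.56. At an unadjusted p under 0.05 by limma, 243 of the 717 were higher in PH80, against 6 of the 48 short subunits. Every PH80 library was above every PH70 library in 234 of the 717 and in 9 of the 48. The 11746 longer ones had a median of -0.01. With the trend on length and GC content removed from each library, 17 of the 48 short subunits were above zero (median -0.07) and 10 of the 27 long ones (median -0.14). Without the steepest library of each group, 32 of 48 (median 0.11) and 9 of 27 (median -0.20) were. The median of all subunits was 0.20 without PH70 replicate 3 and 0.69 without PH70 replicate 1.

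Ndufs1, Sdha, Atp5a1 and Atp5b were also below zero under these settings. Their log2 differences ran from -0.54 to -0.39 with the length and GC trend removed and from -0.60 to -0.45 without the steepest libraries. They were picked for the gap between the groups after their values were seen, so this says nothing on their stability. With the length and GC trend removed, 2 other subunits passed the threshold as lower in PH80, Uqcr11 (log2 difference -0.64) and Ndufa1 (-0.51), at a background of 5.42% of genes. Without that step they were at 0.42 and 0.49.

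**Figure D4:**
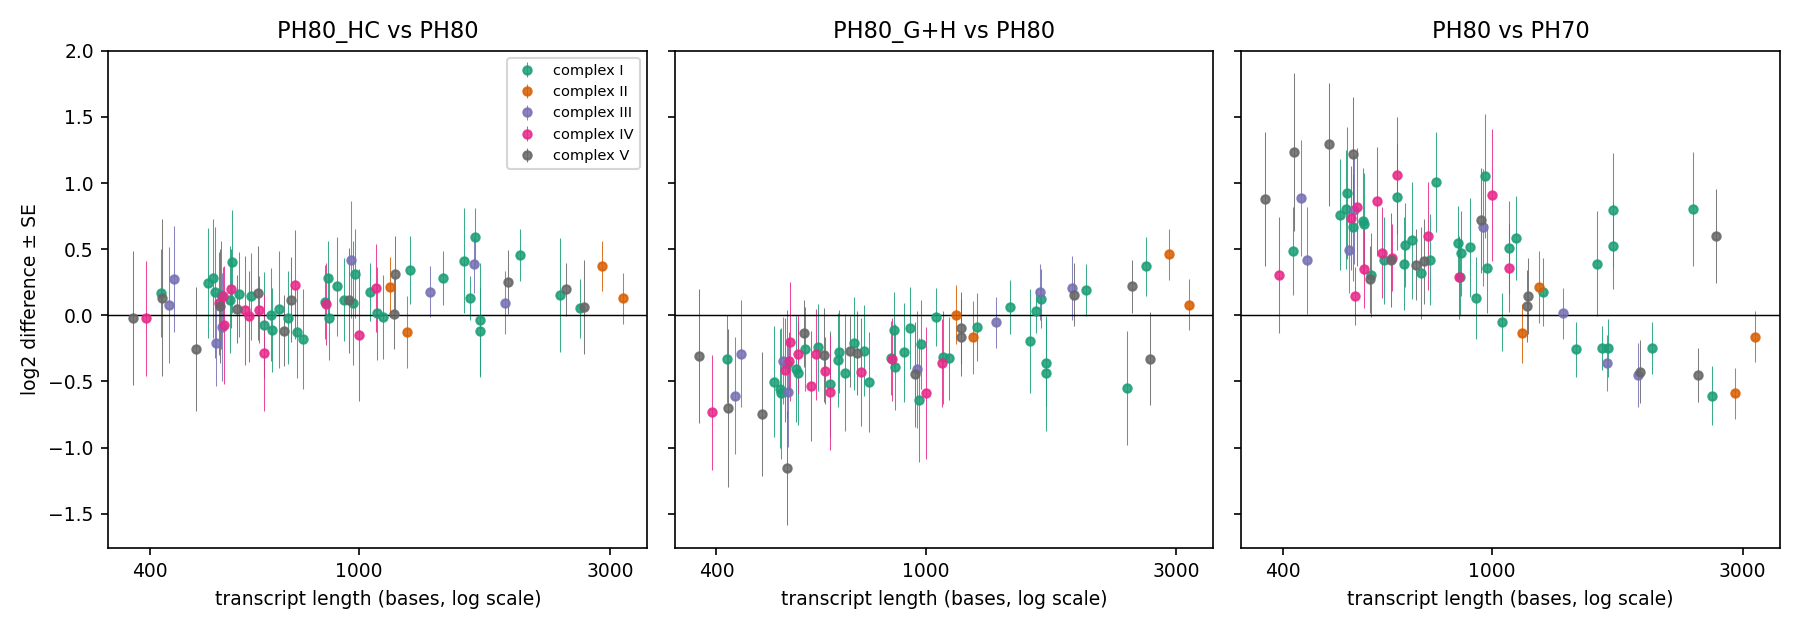
Log2 difference of each subunit (point, with its SE from limma) against transcript length in bases on a log scale, coloured by complex, for PH80_HC against PH80, PH80_G+H against PH80 and PH80 against PH70. The points fall with length in PH80 against PH70 (Spearman -0.564 across 75 subunits), climb in PH80_G+H against PH80 (0.601) and show less slope in PH80_HC against PH80 (0.241).

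The arm named HC was set against PH80. The same PH80 libraries also entered the comparison with PH70, so differences of opposite sign in these comparisons are not independent. Of the 76 subunits, 0 passed the test (limma with Benjamini-Hochberg adjustment; 0.891% of all genes did), and 2, both higher in PH80_HC, had an unadjusted p under 0.05, against 14.3% of all genes. edgeR and DESeq2 called 0. The median log2 difference was 0.12 with 56 of 76 above zero, against 0.01 for all genes. With every library scaled to the same total the subunit median was -0.21, which is 8 of 76 above zero, but the median of all genes was then -0.31. Each of the 6 libraries moved this small median. It was 0.22, 0.26 and -0.19 without PH80_HC replicate 1, 2 or 3, and 0.23, 0.07 and 0.02 without PH80 replicate 1, 2 or 3. It was 0.08 with the length and GC trend removed and -0.06 without the steepest library of each group. Summed hepatocyte markers were higher and stellate cell markers lower in PH80_HC than in PH80, as given above, and their part in these values was not tested.

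Ndufv1 (chromosome 19, 4007384 to 4012806, minus strand) was the furthest from zero. It had 5423, 3481 and 6419 normalised reads in PH80_HC, against 3305, 3630 and 2953 in PH80. PH80_HC replicates 1 and 3 were high, and replicate 2 lay within the PH80 range. The log2 difference was 0.59 (SE 0.22, limma adjusted p = 0.235). Ndufa10, an accessory subunit of complex I, had 4162, 2891 and 4248 in PH80_HC, against 2619, 2951 and 2555 in PH80 (log2 difference 0.46, SE 0.20, limma adjusted p = 0.303), with the same replicate 2 within the PH80 range.

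In 3 subunits every PH80_HC library was above every PH80 library, against 8.26% of all genes, and in 0 it was below, against 7.38% of all genes. They were Sdha, Atp5a1 and Uqcrfs1. Sdha had 7983, 6758 and 6328 normalised reads in PH80_HC, against 5571, 5243 and 5365 in PH80 (log2 difference 0.37, SE 0.19, limma adjusted p = 0.404). Atp5a1 had 20750, 16480 and 17030 in PH80_HC, against 14790, 16280 and 16100 in PH80 (log2 difference 0.20, limma adjusted p = 0.731). For Atp5a1 the gap was narrow and replicate 1 alone stood clear. Uqcrfs1 averaged 5291 ± 276 in PH80_HC and 4681 ± 383 in PH80 (SD, n = 3 each).

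Short subunits were spread by a single library in this arm. Cox4i1 had 16940, 16120 and 37820 normalised reads in PH80_HC, against 23930, 17190 and 15480 in PH80. Atp5e had 7410, 7574 and 33600 in PH80_HC, against 15010, 11130 and 8557 in PH80. PH80_HC replicates 1 and 2 were within or below the PH80 range and replicate 3 was far above it. Of the 48 short subunits, 33 were above zero with all libraries and 1 of 48 without PH80_HC replicate 3. Among long subunits 22 of 27 were above zero with all libraries (median 0.18) and 15 of 27 without that library (median 0.09). Uqcrq, a small subunit of complex III, had 15240, 14020 and 37150 in PH80_HC, against 18830, 14440 and 12170 in PH80, and Cox7a2 (-0.28), Atp5mpl (-0.25) and Uqcrb (-0.21) were lowest in log2 difference.

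The arm with G-CSF and HNF4a was set against the same PH80 libraries in the same way. Of the 76 subunits, 0 passed the test (limma with Benjamini-Hochberg adjustment; 0.119% of all genes did), and 1 higher and 1 lower had an unadjusted p under 0.05, against 10.5% of all genes. edgeR and DESeq2 called 0. The median log2 difference was -0.32 with 12 of 76 above zero, and that of all genes was -2.01e-05. The median was -0.32 in complex I, 0.04 in complex II, -0.32 in complex III, -0.41 in complex IV and -0.30 in complex V.

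Sdha had 6746, 9226 and 6570 normalised reads in PH80_G+H, against 5571, 5243 and 5365 in PH80. All PH80_G+H libraries were above PH80, and replicate 2 was the highest of all 12 libraries. The mean was 7514 ± 1485 in PH80_G+H and 5393 ± 165 in PH80 (SD, n = 3 each), a log2 difference of 0.46 (SE 0.19, limma adjusted p = 0.412). Atp5a1 had 17890, 19870 and 17210 in PH80_G+H, against 14790, 16280 and 16100 in PH80, also without overlap (log2 difference 0.22, limma adjusted p = 0.731). These 2 were the subunits that were higher without overlap, against 8.82% of all genes. Summed hepatocyte markers were also higher in PH80_G+H than in PH80, and their part in these values was not tested. Ndufs1, with 1805, 2441 and 1864 in PH80_G+H against 1436, 1424 and 1852 in PH80, overlapped (log2 difference 0.37, limma adjusted p = 0.593).

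Atp5l, a membrane subunit of ATP synthase, was the subunit that was lower without overlap, against 8.11% of all genes. It had 27.6, 16.8 and 43.5 normalised reads in PH80_G+H, against 67.5, 68.0 and 52.1 in PH80 (log2 difference -1.16, SE 0.43, limma adjusted p = 0.341). Its count is uncertain, because 68.5% of the 50-base windows of its transcript are also found in transcripts of 13 other genes. The same holds for Atp5g1, Atp5g2, Cox7c, Atp5h and Ndufb4c, which share over 50% of their windows with other genes.

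Other short subunits turned on PH80_G+H replicate 2. Ndufa4 had 19740, 6385 and 20560 normalised reads in PH80_G+H, against 25160, 20280 and 17300 in PH80, and Cox4i1 had 19120, 7895 and 17380, against 23930, 17190 and 15480 in PH80. Replicates 1 and 3 lay within the PH80 range for both genes and replicate 2 lay far below it. Atp5mpl (log2 difference -0.74), Cox7a1 (-0.73) and Atp5e (-0.70) were lowest among subunits with a mean of at least 50. Of the 48 short subunits 0 were above zero with all libraries, and 18 of 48 without PH80_G+H replicate 2. Of the 717 other short genes 100 were above zero, with a median of -0.36, the same as for the short subunits. The median of all subunits was 0.00 without PH80_G+H replicate 2, -0.17 without PH80 replicate 1 and -0.49 without PH80_G+H replicate 1. It was 0.04 with the length and GC trend removed and 0.13 without the steepest libraries, where 66 of 76 were above zero.

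**Figure D5:**
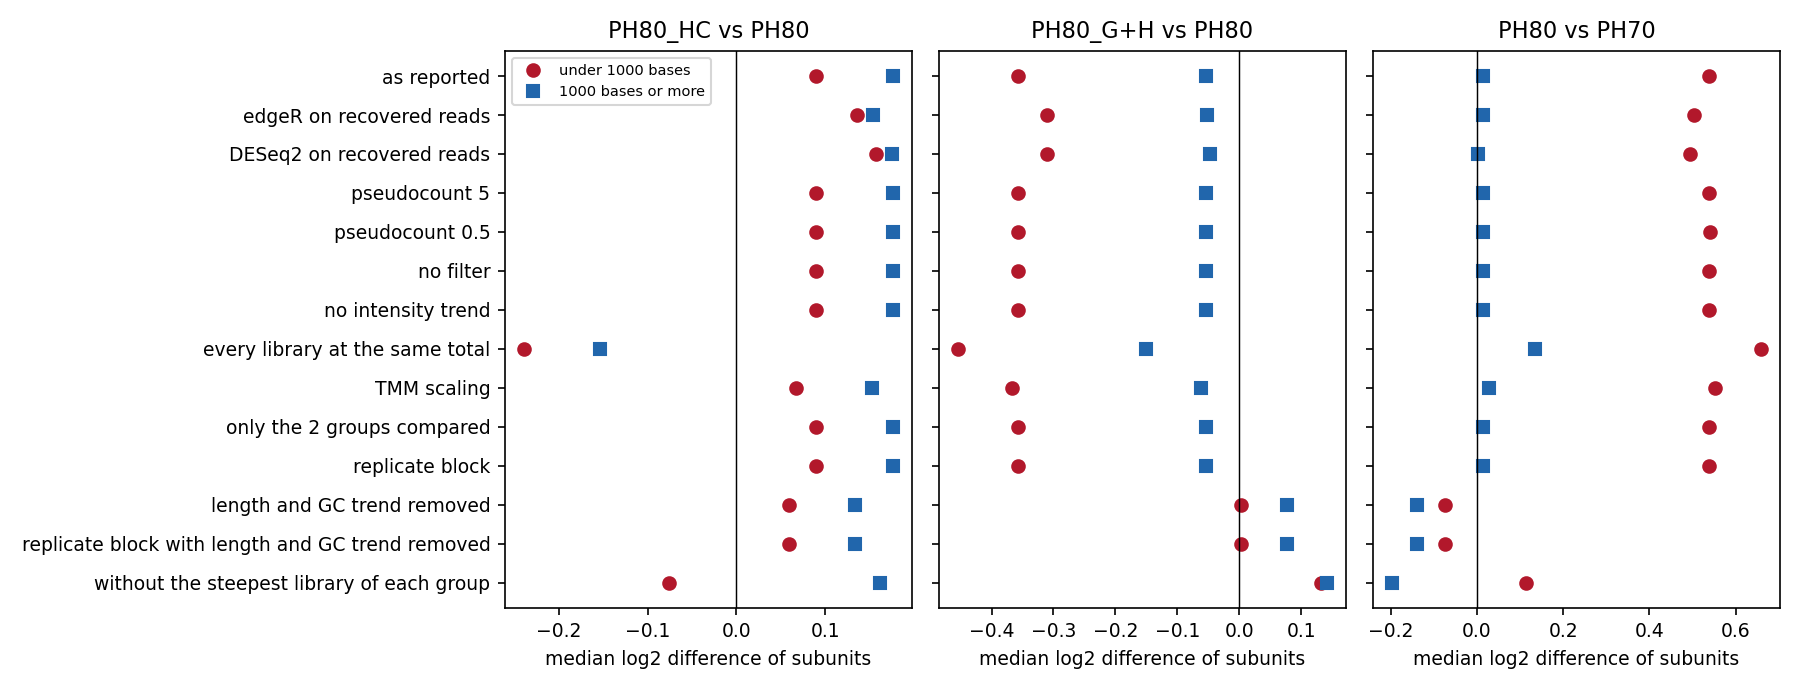
Median log2 difference of the short (48 genes, circles) and long (27 genes, squares) subunits under each processing setting, for the 3 comparisons. With all libraries and no length correction the short subunits lie at 0.54 in PH80 against PH70 and at -0.36 in PH80_G+H against PH80, and both values lie near zero or past it when the length trend is removed or the steepest library of each group is left out.

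The remaining comparisons gave no subunit past the threshold either. In PH80_HC against PH70, 0 of 76 passed (limma; 0.231% of all genes did) and 15 had an unadjusted p under 0.05 (14 higher, 1 lower), against 15.8% of all genes. The median log2 difference was 0.56, and it was 0.24 without PH80_HC replicate 3 and 0.30 without PH70 replicate 3. With the length and GC trend removed it was -0.04 (35 of 75 above zero), and without the steepest libraries it was -0.0021 (38 of 76). In PH80_G+H against PH70, 0 passed (0.00796% of all genes did) and 0 had an unadjusted p under 0.05, against 5.97% of all genes. The median was 0.14, and it was -0.09 without PH70 replicate 3, 0.39 without PH70 replicate 1, 0.45 without PH80_G+H replicate 2, 0.02 without PH80_G+H replicate 3 and -0.03 without PH80_G+H replicate 1. With the length and GC trend removed it was -0.08, and without the steepest libraries it was 0.17. In PH80_HC against PH80_G+H, 0 passed (0.255% of all genes did) and 3 had an unadjusted p under 0.05, all higher in PH80_HC, against 13.6% of all genes. The median was 0.41, and it was 0.11 without PH80_HC replicate 3 and 0.13 without PH80_G+H replicate 2. With the length and GC trend removed it was 0.06, and without the steepest libraries the sign was the opposite, at -0.17 (19 of 76 above zero). Over the 4 groups together, the moderated F test of limma passed 0 subunits (1.85% of all genes) and 2, Atp5l and Sdha, had an unadjusted p under 0.05, against 19.1% of all genes. edgeR called 0 subunits in each of these comparisons. DESeq2 called 1, Atp5l, over the 4 groups, against 9.75% of all genes, and the count of Atp5l is uncertain, as given above.

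Genes that build and feed the respiratory chain were counted in PH80 against PH70 from lists of known members. Each of 2 lists of 18 genes had 1 called gene, and 3.82% of all genes tested were called, so that these counts were near the background. Of 18 complex I assembly genes 1 fell, Dmac2, which helps to assemble the membrane arm of complex I. It had 481, 428 and 427 normalised reads in PH80, against 941, 731 and 660 in PH70, with no overlap (log2 difference -0.79, SE 0.20, limma adjusted p = 0.0456). Of 18 regulators of mitochondrial biogenesis 1 fell, Ppargc1b, a coactivator of nuclear genes for mitochondria. It had 66.1, 67.3 and 70.8 in PH80, against 143, 139 and 138 in PH70 (log2 difference -1.03, SE 0.26, limma adjusted p = 0.0436). Both were named after their values were seen. Each call was lost in most alternatives, in 15 of 25 for Dmac2 and in 16 of 25 for Ppargc1b. Both were lost with equal library totals (adjusted p = 0.118 for Dmac2 and 0.142 for Ppargc1b, limma) and with TMM scaling (0.0509 and 0.0502). Ppargc1b was also lost with edgeR (0.0567) and Dmac2 without an intensity trend (0.0711). Neither passed when any single PH80 or PH70 library was left out, nor did Dmac2 without PH80_HC replicate 2 or PH80_G+H replicate 1 or 3, or Ppargc1b without PH80_G+H replicate 1, 2 or 3. Over all alternatives the adjusted p ran from 0.00765 to 0.141 for Dmac2 and from 0.00888 to 0.164 for Ppargc1b.

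Ppargc1b had 38.1, 81.6 and 58.4 normalised reads in PH80_HC and 95.7, 121 and 127 in PH80_G+H. All 3 PH80_G+H libraries lay between PH80 and PH70 (log2 difference from PH80 0.73, limma adjusted p = 0.322). This difference and that of PH80 from PH70 share the PH80 libraries and are not independent. Among other regulators, Gabpa, an ETS factor, had 286, 357 and 392 in PH80, against 542, 634 and 658 in PH70 (log2 difference -0.83, SE 0.24, limma adjusted p = 0.0696, range over the alternatives 0.0204 to 0.228). Its exons overlap those of Atp5j on the other strand, and the sources used here do not say whether the counting used strand. Ppargc1a (-0.50), Nrf1 (0.10), Esrra (0.40) and Tfam (-0.09) had adjusted p values of 0.346 or more.

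The median log2 difference of these lists was 0.27 for complex I assembly and -0.16 for the regulators. The other lists had 0 called genes in PH80 against PH70. The TCA cycle lay opposite to the short subunits, with 15 of 17 genes below zero and a median log2 difference of -0.41. Of its genes 6 were lower at an unadjusted p under 0.05 by limma. Among all 12570 genes, 1414 were lower and 1279 higher at that level. Higher at that level were 6 of 24 complex IV assembly genes and 9 of 19 import and chaperone genes. The mitochondrial ribosome had 16 of 78 and the cytosolic ribosome 49 of 77. The 78 genes of the mitochondrial ribosome had a median of 0.43 with 67 above zero, the 24 of complex IV assembly 0.53 with 18 above zero, and the 19 of import and chaperones 0.52 with 15 above zero. Those of the cytosolic ribosome had 0.96 with 77 of 77 above zero. Coenzyme Q synthesis (13 genes) stood at 0.02, complex II assembly (4 genes) at 0.50, complex III assembly (6 genes) at -0.17, the assembly factors and inhibitor of complex V (4 genes) at 0.17, and carriers and antioxidants (13 genes) at 0.11. All list medians were taken from the reported fit alone, without removal of the length trend. The part of transcript length in the differences between lists was not tested.

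Cycs, the electron carrier cytochrome c, had 1318, 1388 and 1515 normalised reads in PH80, against 1172, 867 and 631 in PH70, with no overlap (log2 difference 0.70, SE 0.23, limma adjusted p = 0.112). It had 845, 1014 and 979 in PH80_HC (log2 difference from PH80 -0.57, limma adjusted p = 0.275). In PH80_G+H it had 1231, 810 and 1290 (log2 difference from PH80 -0.37). In both arms each library lay below each PH80 library, as was so for 7.38% of all genes in PH80_HC and 8.11% in PH80_G+H. Cyc1, the cytochrome of complex III, had a log2 difference of -0.02 in PH80 against PH70, and Ndufab1, the carrier protein bound to complex I, had 0.60 (limma adjusted p = 0.255). In PH80_HC against PH80 and in PH80_G+H against PH80, 0 genes of these lists passed the test.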

How the data were processed

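The deposited values are a normalised signal, namely reads that the authors divided by a size factor for each library. This follows from the values themselves, since 100% of them in each library gave whole reads within 0.01. The submitters' processing notes name DESeq2 and the build GRCm38 (mm10), and the sources used here do not give the aligner, counter or annotation. Per the labels' protocols, the library kit was TruSeq Stranded mRNA, which captures polyadenylated transcripts.

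Limma (3.58.1, R 4.3.3) was fitted to log2(value + 1) of the 12570 genes that reached 10 in 3 or more libraries, over all 12 libraries with group as the factor and an intensity trend. Fold changes on this scale understate low genes. For 6 comparisons and 1 F test, two-sided p-values were adjusted by Benjamini-Hochberg over all genes tested, with a threshold of 0.05. As alternatives, the quasi-likelihood test of edgeR (4.0.16) and DESeq2 (1.42.0) were applied to the recovered reads. The other alternatives were a pseudocount of 0.5 or 5, no filter, no intensity trend, equal library totals, TMM scaling, only the 2 groups compared, a replicate block, removal of the trend on length and GC content, and leaving out libraries. The pipeline was also run on simulated counts, which held no length trend shared by the genes of a library. How often it would find a change in these subunits was not tested.

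Length, GC content, coordinates and shared 50-base windows came from GENCODE M21 (GRCm38), with length as the median over principal transcripts. Promoter sequences are RefSeq's. The subunits, gene lists and tests were chosen with earlier results of these data known. The text names the 3 subunits per direction with the largest difference among those with a mean of at least 50, a set of core subunits and isoforms, and 8 pathway genes. Dmac2, Ppargc1b and the subunits named for not overlapping were named after their values were seen, and the split at 1000 bases, and its repeat without subunits whose transcripts lie on both sides of it, were chosen then too. 1 tested subunit, which enters the counts and medians, is not reported here by name.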

Additional observations from a re-analysis of the deposited data

How the results depend on the processing

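In PH80 against PH70, 0 subunits were called in the reported fit. The alternatives that changed this count were DESeq2 on recovered reads and removal of the length and GC trend. DESeq2 called 2 (Sdha and Atp5a1, lower in PH80) at a background of 7.56% of genes. Removal of the trend gave 2 (Uqcr11 and Ndufa1, lower) at a background of 5.42%. Over the 4 groups DESeq2 called 1 (Atp5l), at a background of 9.75%. In each other comparison and alternative 0 were called, leaving out any single library and the replicate block included (range 0 to 0). The replicate numbers share only a number: of 18 pairs of same-numbered libraries 6 correlated over 0.1 (range -0.37 to 0.37), and 1 of 12 libraries correlated best with its own number. With every library at the same total, the median of all genes moved to 0.13 in PH80 against PH70, -0.31 in PH80_HC against PH80, -0.20 in PH80_HC against PH70 and -0.21 in PH80_HC against PH80_G+H. Of 234 log2 differences of named genes, 144 had the opposite sign in at least 1 of the 25 alternatives, where neither value was past the threshold. The cause of these changes was not tested. At 9.72 to 44.5 M reads per library, Atp5l had 8 to 103 reads, Cox7a1 23 to 110 and Ndufa4l2 31 to 151, so that relative counting error is larger for these than for abundant subunits. How far depth limits each gene was not tested.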
